A study of Mus musculus with 6 samples.

Results

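The 7 genes described here present peptides on MHC class II molecules or control that presentation, and they were followed across 6 mouse heart libraries. They are *H2-Aa*, *H2-Ab1* and *H2-Eb1*, which encode chains of the class II molecule, *Cd74*, which encodes the invariant chain, *H2-DMa* and *H2-DMb1*, which encode the peptide loading factor DM, and *Ciita*, the class II transactivator. The genes were chosen by function, but with their FPKM in the groups already known, and all 7 were found by symbol among the 24346 genes listed. Values between the groups are therefore given as a description of these libraries, and counts of members that passed a threshold are not a test of them. C57BL/6J male mice were fed chow (C group), a NASH diet rich in fat, cholesterol and sucrose with added bile acid (N group), or the NASH diet with pemafibrate at 0.1 mg/kg (NP group), with 2 libraries per group. Pairs of values below give replicates 1 and 2, and "under pemafibrate" stands for the NP group, which also received the NASH diet. The sample labels give 3 weeks of feeding, whereas the methods of the study give a longer period. Pemafibrate is a selective PPARα modulator. The age of the mice, and whether the 2 libraries of a group came from separate animals, are not given in the sources used here.

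Class II molecules are heterodimers of an α and a β chain that carry peptides from endocytosed proteins to the cell surface, where CD4 T cells read them. Dendritic cells, B cells and macrophages make them at all times, and interferon-gamma induces them in many other cells, such as endothelial cells. In the endoplasmic reticulum the invariant chain blocks the peptide groove, lysosomal proteases then trim it, and DM exchanges the remaining fragment for a peptide. Transcription of this gene set depends on the coactivator encoded by *Ciita*, which does not bind DNA itself but docks on RFX, CREB and NF-Y at the class II promoters. FPKM scale the fragments of a gene by its exon length and by the mapped total of the library. They are relative values, so a difference between libraries also depends on the other genes in each library. Results under other scalings are given at the end.

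Several facts of the libraries bear on the values below. From the steps between low FPKM, the depth was estimated at 26100000 and 21400000 reads with chow and between 8240000 and 8720000 reads in the N and NP libraries, so depth and diet cannot be told apart in comparisons with the C group. The tissue was checked against 8 cardiomyocyte markers, whose FPKM summed to between 44320 and 63250. The summed FPKM of 5 atrial markers (*Myl7*, *Myl4*, *Nppa*, *Sln* and *Bmp10*) was 307 and 172 with chow, 3665 and 5177 on the NASH diet and 3748 and 6191 under pemafibrate. That of 5 hepatocyte markers was 26.2 and 377 in the C libraries and between 1.15 and 4.93 in the others. The median of 4 adipocyte markers, as log2(FPKM + 1) relative to the chow mean, was -0.21 and 0.21 with chow, 2.74 and 2.79 on the NASH diet and 0.55 and 2.57 under pemafibrate. Of the 4, 0 were called in limma for N against C and 3 were higher at an unadjusted *P* value under 0.05. These 3, *Adipoq*, *Plin1* and *Cfd*, had 17.8, 28.2 and 29.2 times the mean FPKM of the C group in the N group. *Fabp4*, the other marker tested, had 0.826 times that mean. The summed FPKM of all 5 listed adipocyte markers lay between 1009 and 1343. *Fabp4* made up most of that sum, which therefore says little about the other markers. The part of atrial, hepatocyte and adipocyte material in the class II values was not tested. In heart tissue as a whole, more cells of a type and more RNA per cell cannot be told apart.

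*H2-Aa*, the α chain of the I-A molecule, lies on chromosome 17 of mm10 from 34282744 to 34287823. Its FPKM was 69.6 and 65.2 with chow, 414 and 374 on the NASH diet and 49.8 and 51.3 under pemafibrate. Both N libraries lay far above all 4 others, and both NP libraries lay below both C libraries. The mean was 67.4 ± 3.07 with chow, 394 ± 28.4 on the NASH diet and 50.5 ± 1.09 under pemafibrate (SD, n = 2), so that the N group had 5.84 times the FPKM of the C group and 7.80 times that of the NP group.

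*H2-Ab1*, the β chain that pairs with it (chromosome 17, 34263227 to 34269418), had an FPKM of 53.5 and 47.4 with chow, 297 and 260 on the NASH diet and 33.0 and 38.4 under pemafibrate. The order of the groups was that of *H2-Aa*, without overlap between any pair of groups. *H2-Eb1*, the β chain of the I-E molecule (chromosome 17, 34305867 to 34316674), had an FPKM of 35.8 and 32.6 with chow, 207 and 182 on the NASH diet and 23.2 and 28.5 under pemafibrate. Its partner chain is not made in C57BL/6 mice, and *H2-Ea-ps*, the pseudogene listed for that chain, had an FPKM of 0 in all 6 libraries. The β chain transcript of I-E therefore followed the I-A transcripts although its α chain was listed at 0. For *H2-Ab1* and *H2-Eb1* the mean of the N group was 5.53 and 5.69 times that of the C group and 7.81 and 7.53 times that of the NP group.

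*Cd74*, the invariant chain (chromosome 18, 60803849 to 60812652), had the highest FPKM of the 7 genes in every library. Its FPKM was 131 and 121 with chow, 916 and 636 on the NASH diet and 114 and 108 under pemafibrate. The N libraries differed from each other by more than for any other member, and the lower of them was still above all C and NP values. The mean was 126 ± 7.15, 776 ± 198 and 111 ± 4.38 in the C, N and NP groups (SD, n = 2). Ranked among all genes listed, *Cd74* was at position 602 and 661 with chow, 79 and 129 on the NASH diet, and 638 and 702 under pemafibrate.

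The DM genes were expressed at a lower level. *H2-DMa* (chromosome 17, 34119693 to 34139101) had an FPKM of 3.37 and 2.82 with chow, 20.2 and 15.1 on the NASH diet and 2.67 and 2.83 under pemafibrate. *H2-DMb1* (chromosome 17, 34153191 to 34160229) had an FPKM of 3.17 and 3.85 with chow, 22.2 and 19 on the NASH diet and 3.15 and 2.72 under pemafibrate. For both genes the N libraries stood apart, whereas the C and NP libraries overlapped for *H2-DMa* and lay close together for *H2-DMb1*. The N group had 5.70 and 5.87 times the mean FPKM of the C group for *H2-DMa* and *H2-DMb1*. Of the stretches of 75 bases, the read length, in the annotated *H2-DMb1* transcripts, 15.8% also occur in transcripts of its neighbour *H2-DMb2*, so reads can be split between these paralogues. For the other 6 members no such stretch occurs in transcripts of another gene.

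*Ciita* (chromosome 16, 10480014 to 10531064) was the lowest of the 7 genes. Its FPKM was 0.601 and 0.582 with chow, 4.73 and 4.52 on the NASH diet and 0.415 and 0.269 under pemafibrate, with no overlap between the groups. Taken over its longest annotated transcript, these values correspond to about 91 and 72 reads with chow, 239 and 229 on the NASH diet and 20 and 13 under pemafibrate. The ratio of the N mean to the C mean was 7.82, the highest of the 7 genes, and the ratio to the NP mean was 13.5, which rests on those few reads in the NP libraries. On the log2(FPKM + 1) scale, which understates the change of low genes, its difference of 1.82 for N against C was the smallest of the 7. With 0.1 added in place of 1 it was 2.77.

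**Figure D1:**
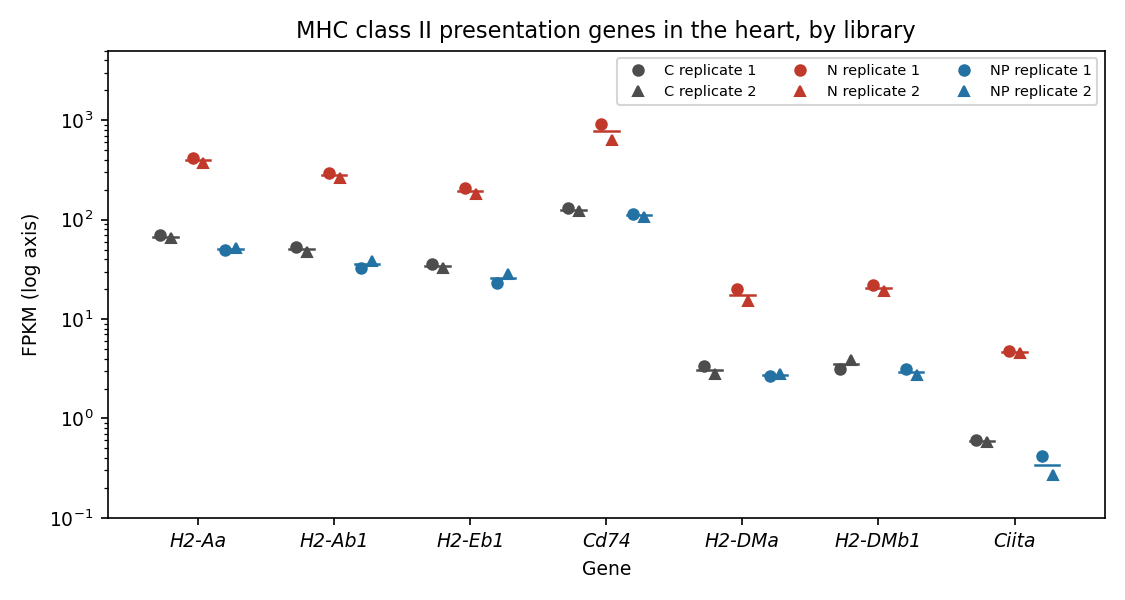
FPKM of the 7 genes in each library on a logarithmic axis, with circles for replicate 1, triangles for replicate 2 and a bar at the mean of the group. For every gene both N libraries lie above the C and NP libraries, from 4.52 to 4.73 FPKM for *Ciita* to 636 to 916 FPKM for *Cd74*.

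The promoters of this gene set share a module of an X box, bound by RFX, and a Y box, bound by NF-Y, on which the transactivator docks. RefSeq windows from 250 bases before to 50 bases after the transcription start were at hand for *H2-Aa*, *H2-Eb1*, *H2-DMa* and *H2-DMb1*, that is for 4 of the 7 genes, and for 4 paralogues. They are shown for 3 members whose FPKM moved together, 5′ to 3′ on the strand of the gene. The letters AACNGATG, as part of an X box, and TGATTGG, as a Y box, were searched on the strand of the gene. TGACGTCA, a CREB element that does not overlap either of them here, was searched in the same way. Capitals mark these letters. They were picked with these windows in view, so that finding them in the members is no test. The windows are chr17:34287774-34288073 on the minus strand for *H2-Aa*, chr17:34305617-34305916 on the plus strand for *H2-Eb1* and chr17:34152941-34153240 on the plus strand for *H2-DMb1*, all in GRCm38.p6.
H2-Aa: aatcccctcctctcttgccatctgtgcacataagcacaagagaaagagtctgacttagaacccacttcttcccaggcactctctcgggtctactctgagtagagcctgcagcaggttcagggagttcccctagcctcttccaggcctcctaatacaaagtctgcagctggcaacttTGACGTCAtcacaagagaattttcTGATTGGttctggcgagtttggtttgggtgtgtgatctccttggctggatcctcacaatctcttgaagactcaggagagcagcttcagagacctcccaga
H2-Eb1: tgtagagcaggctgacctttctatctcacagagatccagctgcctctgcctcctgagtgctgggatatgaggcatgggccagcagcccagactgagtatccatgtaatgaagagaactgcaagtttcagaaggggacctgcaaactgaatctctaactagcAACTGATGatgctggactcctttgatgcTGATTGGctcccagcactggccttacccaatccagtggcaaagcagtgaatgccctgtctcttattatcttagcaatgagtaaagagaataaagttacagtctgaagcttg
H2-DMb1: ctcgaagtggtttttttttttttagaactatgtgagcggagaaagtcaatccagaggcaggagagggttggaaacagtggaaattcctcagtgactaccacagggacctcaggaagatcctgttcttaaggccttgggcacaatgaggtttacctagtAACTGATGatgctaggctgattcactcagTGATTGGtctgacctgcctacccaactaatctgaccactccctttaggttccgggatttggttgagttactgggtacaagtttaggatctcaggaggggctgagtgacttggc

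In *H2-Eb1* the X box letters begin 89 bases and the Y box letters 61 bases before the start, 28 bases apart. In *H2-DMb1* they begin 92 and 63 bases before the start, 29 bases apart. *H2-Aa* holds the Y box letters 50 bases before the start and the CREB element 74 bases before it, without the X box letters searched. Neither of the windows listed for *H2-DMa* (starting at 34122582 and 34125268) holds any of these letters on the strand of the gene. Both windows lie inside the interval given above for *H2-DMa*, and no other start of this gene was searched. Whether *H2-DMa* has these letters at another start is therefore not known from this search. Of 32851 promoter windows of all genes, here searched on both strands, 2.32% hold the X box letters, 7.82% the Y box letters and 1.79% the CREB element. The X box letters followed by the Y box letters within 25 to 34 bases occur in 0.0152%, that is in 5 windows, and these are *H2-DMb1*, *H2-DMb2*, *H2-Eb1*, *H2-Eb2* and *BC051142*.

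**Figure D2:**
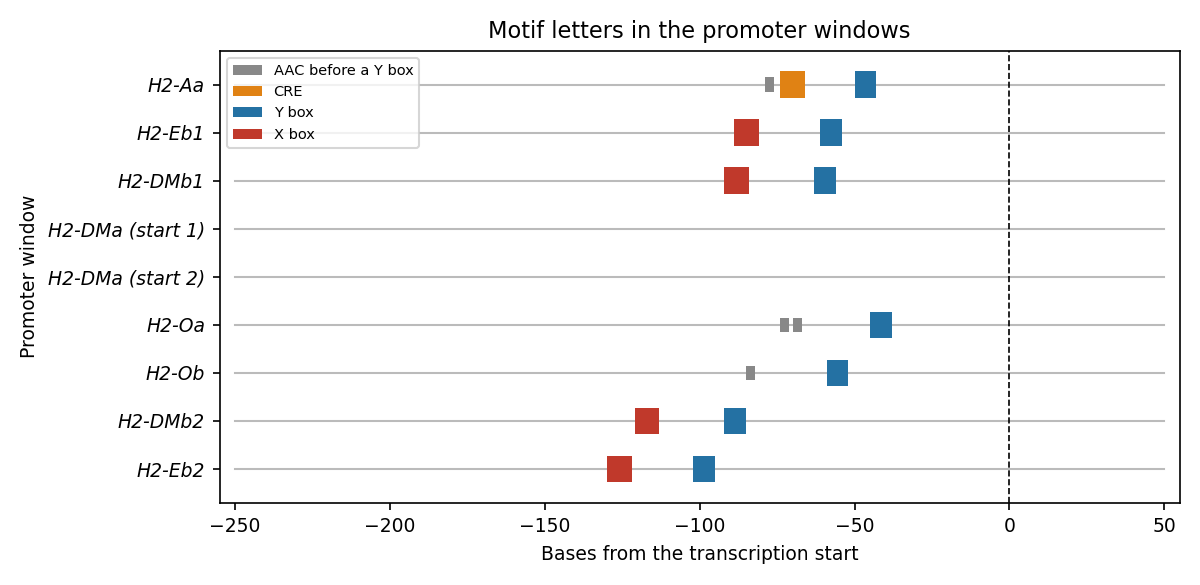
Position of the searched letters in the promoter windows of 3 members and 4 paralogues and in both windows of *H2-DMa*, in bases from the transcription start. Grey bars mark AAC letters 25 to 34 bases before a Y box where the full X box letters are absent. In 7 of the 8 genes the Y box lies between 45 and 102 bases before the start. The *H2-DMa* windows are empty, and other starts of that gene were not searched.

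The same stretch of 60 bases around the Y box is given for the paralogues, because their promoters resemble those of the members while their FPKM did not reach similar levels.
H2-DMb2: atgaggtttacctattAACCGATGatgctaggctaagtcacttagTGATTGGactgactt
H2-Eb2: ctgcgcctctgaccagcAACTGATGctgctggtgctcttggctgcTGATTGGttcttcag
H2-Oa: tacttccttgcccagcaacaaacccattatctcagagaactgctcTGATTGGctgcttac
H2-Ob: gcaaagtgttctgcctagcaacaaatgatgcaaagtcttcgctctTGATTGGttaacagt

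*H2-DMb2*, a second DM β chain, had an FPKM of 0.132 and 0.641 with chow, 1.58 and 1.39 on the NASH diet and 0.211 and 0 under pemafibrate. Its log2 difference was 0.86 for N against C (limma adjusted *P* = 0.161) and -1.17 for NP against N (limma adjusted *P* = 0.106), which did not pass the threshold of 0.05. *H2-Oa* and *H2-Ob*, which encode the DM inhibitor, and *H2-Eb2* lay under the limit of a mean FPKM of 0.5 and were not tested. *H2-DMb2* reached that limit only through the N libraries, so a higher N group was favoured in advance in its tests. *H2-Ob* had an FPKM of 0.261 and 0.224 with chow, 1.01 and 0.511 on the NASH diet and 0.147 and 0.333 under pemafibrate. The highest FPKM was 0.676 for *H2-Oa* and 0.142 for *H2-Eb2*, both in N replicate 1. *BC051142*, the gene outside the class II set with this pair of letters, was listed at 0.0829 FPKM and *H2-Eb1* at 207 FPKM in that library.

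The make-up of the set changed little while its total changed several-fold. The FPKM of the 7 genes summed to 297.5 and 273.9 with chow, 1881 and 1492 on the NASH diet and 225.9 and 231.6 under pemafibrate, which is 0.0476% and 0.0420%, 0.340% and 0.258%, and 0.0412% and 0.0387% of all FPKM. *Cd74* made up between 42.7% and 50.3% of the sum in the 6 libraries, *H2-Aa* between 22% and 25.1%, *H2-Ab1* between 14.6% and 18% and *H2-Eb1* between 10.3% and 12.3%. Those of *H2-DMa* and *H2-DMb1* lay between 1.01% and 1.41%. The N and C libraries overlapped in each of these 6 shares. The NP libraries lay apart from the C libraries in 4 of them, with more of *Cd74* (46.4% and 50.3% against 44.2% and 44.3%) and *H2-DMa* (1.18% and 1.22% against 1.03% and 1.13%) and less of *H2-Aa* and *H2-Ab1*.

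**Figure D3:**
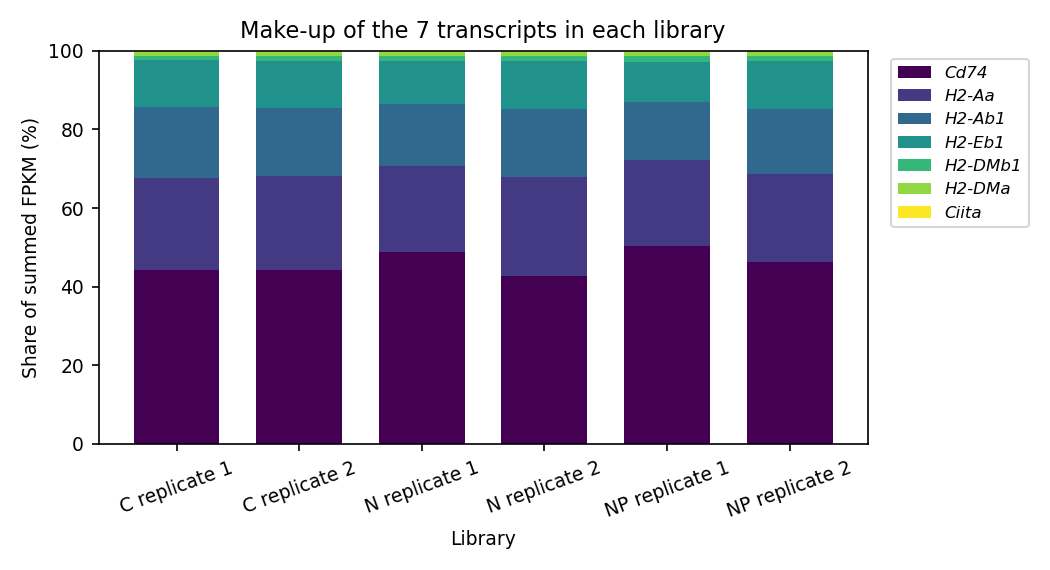
Share of each gene in the summed FPKM of the 7 genes, as stacked bars from 0 to 100% for each library. *Cd74* and *H2-Aa* hold the largest shares in all 6 libraries, and *Ciita*, between 0.116% and 0.303%, is barely visible.

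The FPKM of *H2-Aa* was between 1.30 and 1.51 times that of its partner *H2-Ab1* in the 6 libraries, and *H2-DMa* was between 0.733 and 1.06 times *H2-DMb1*. The invariant chain exceeded *H2-Aa* by 1.89 and 1.86 times with chow, 2.21 and 1.70 times on the NASH diet and 2.29 and 2.10 times under pemafibrate. *Ciita* was the exception to the even make-up, with 0.202% and 0.213% of the sum with chow, 0.252% and 0.303% on the NASH diet and 0.184% and 0.116% under pemafibrate, so that its share was highest in the N group and lowest in the NP group without overlap.

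For N against C all 7 genes were higher in the N group without overlap, which held for 22.5% of the 12923 genes tested, and all 7 were among the genes called higher at a limma adjusted *P* value under 0.05, which were 1.48% of the genes tested. Because the genes were chosen with these values known, these counts only describe them. *Ciita* also reached the mean FPKM of 0.5 needed for the test only through the N libraries. On the log2(FPKM + 1) scale the median difference of the 7 genes was 2.44, and that of all genes tested was -0.03. Among the members the log2 difference was largest for *Cd74*, at 2.59 (standard error 0.18), followed by *H2-Aa* at 2.53 (0.11), *H2-Eb1* at 2.47 (0.14), *H2-Ab1* at 2.44 (0.14), *H2-DMb1* at 2.26 (0.14) and *H2-DMa* at 2.18 (0.17). The first 4 of these lay within a standard error of their neighbours, as did the DM genes of each other, and *Ciita* was lowest at 1.82 (0.13). Within replicate number 1 the difference was between 1.84 and 2.79 over the 7 genes, and within number 2 it was between 1.80 and 2.5.

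For NP against N all 7 genes were lower in the NP group without overlap, as were 14.7% of the genes tested, and all 7 were among the genes called lower, which made up 1.39%. The median log2 difference of the 7 genes was -2.78, whereas that of all genes was 0.03. *H2-Aa*, *H2-Ab1* and *H2-Eb1* differed by -2.94, -2.93 and -2.87 (standard errors 0.11, 0.14 and 0.14) and *Cd74* by -2.78 (0.18). *H2-DMb1* and *H2-DMa* differed by -2.46 and -2.30 (0.14 and 0.17), and *Ciita* by -2.07 (0.13). The chains of the molecule were thus at one end of the order in this comparison and the transactivator at the other, on a scale that shortens the differences of low genes. The comparison shares the N libraries with the one before, so a value that is high in them raises both. Within replicate number 1 the members differed by between 2.02 and 3.13 as N minus NP, and within number 2 by between 2.07 and 2.84. The names of the deposited N and NP tables take one form for replicate 1 and another for replicate 2, and what that marks is not stated.

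For NP against C the differences were small. The libraries did not overlap for 6 of the 7 genes, which were lower in the NP group, against 23.0% of all genes tested, and *H2-DMa* overlapped. None of the 7 passed the adjusted threshold in limma, where 0.0387% of all genes passed it in either direction. At an unadjusted *P* value under 0.05, 3 of the 7 were lower, against 4.18% of all genes. The log2 difference was -0.41 (standard error 0.11) for *H2-Aa*, -0.49 (0.14) for *H2-Ab1* and -0.40 (0.14) for *H2-Eb1*, and between -0.25 and -0.13 for the other 4 genes. The ratio of the NP mean to the C mean was between 0.578 for *Ciita* and 0.888 for *H2-DMa*. All 7 differences stayed below 0 under each of 11 alternatives, with scaling to the same total bringing *Cd74* to -0.035 and *H2-DMa* to -0.009. The adjusted threshold was not reached, which does not show that the groups were alike.

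Other genes of the class II pathway were taken from a list by role, which was also written with earlier results of these data known. Of 49 genes, 48 were listed and 38 could be tested. For N against C 5 of the 38 were higher in limma's test and 0 were lower, where 1.48% of all genes were called higher. The median log2 difference over the 38 was 0.22, and 14 were higher at an unadjusted *P* value under 0.05, as were 8.24% of all genes. For NP against N 6 were lower and 0 were higher, where 1.39% of all genes were called lower. The median was -0.21, and 12 were lower at an unadjusted *P* value under 0.05, as were 5.83% of all genes. For NP against C 0 passed in limma's test, and 1 was lower at an unadjusted *P* value under 0.05, as were 4.18% of all genes. The unadjusted counts for N against C and for NP against N include *H2-DMb2*, which could be tested only through its N libraries.

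Among the signals that lead to *Ciita*, *Irf1*, an interferon-induced factor that acts on a *Ciita* promoter, had an FPKM of 13.9 and 13.7 with chow, 35.5 and 50.04 on the NASH diet and 12.4 and 15.4 under pemafibrate, a log2 difference of 1.55 for N against C and -1.54 for NP against N (limma adjusted *P* = 0.0219 and 0.0235). *Irf8*, a factor of myeloid and B cells, differed by 1.21 and -1.29 (limma adjusted *P* = 0.0141 and 0.0118). *Spi1*, which encodes PU.1 and drives *Ciita* in myeloid cells, differed by 1.03 and -1.31 (limma adjusted *P* = 0.0916 and 0.0499). The N and C calls of *Irf1* and *Irf8* were lost without C replicate 1, without C replicate 2 or without N replicate 2, with limma adjusted *P* values of up to 0.197 and 0.169. Their NP calls were kept under 8 and 9 of 15 alternatives, and that of *Spi1* under 2 of 15.

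The other genes of that group that could be tested were not called in limma. *Ifng* itself was listed at 0 in 5 libraries and had an FPKM of 0.114 in N replicate 2, about 1 read, so its level was not measurable at this depth. Its receptor genes *Ifngr1* and *Ifngr2* had log2 differences of 0.08 and -0.26 for N against C, and *Jak1* and *Jak2* had 0.08 and -0.00 (limma adjusted *P* between 0.461 and 0.997).

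None of the 7 genes for RFX, NF-Y and CREB subunits was called in either comparison, and at an unadjusted *P* value under 0.05 in limma 1 of them, *Rfx5*, was higher in the N group. *Rfx5* had an FPKM of 1.69 and 1.66 with chow, 2.58 and 2.84 on the NASH diet and 1.54 and 2.33 under pemafibrate, a log2 difference of 0.47 for N against C (limma adjusted *P* = 0.265). The factors that bind the X and Y boxes thus ranged from -0.16 to 0.47 for N against C, where *Ciita* had 1.82.

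Of 9 lysosomal enzymes, 1 was called. *Ctss*, cathepsin S, which removes the invariant chain in professional antigen-presenting cells, had an FPKM of 21.1 and 20.2 with chow, 64.6 and 63.3 on the NASH diet and 14.7 and 16.5 under pemafibrate. Its log2 difference was 1.58 for N against C and -1.97 for NP against N (limma adjusted *P* = 0.00285 and 0.00136), and without C replicate 2 the former had an adjusted *P* value of 0.0519. *Ifi30*, a lysosomal thiol reductase that unfolds antigens, differed by 1.0 and -0.83 (limma adjusted *P* = 0.0618 and 0.128). *Ctsl*, *Ctsb* and *Ctsd*, proteases found in the lysosomes of most cells, had differences of 0.07, 0.15 and -0.08 for N against C (limma adjusted *P* between 0.624 and 0.906).

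On the surface of the presenting cell, *Cd274*, which encodes the inhibitory ligand PD-L1, had an FPKM of 3.95 and 3.21 with chow, 45.02 and 53.6 on the NASH diet and 2.60 and 3.42 under pemafibrate. It differed by 3.46 and -3.65 on the log2 scale (limma adjusted *P* = 0.000959 and 0.000841), and both calls were kept under 15 of 15 alternatives. The costimulatory ligand genes *Cd86*, *Cd80* and *Cd40* had differences of 0.48, 0.20 and -0.22 for N against C (limma adjusted *P* = 0.42, 0.723 and 0.739). *March1*, a ubiquitin ligase that removes class II molecules from the surface, had an FPKM of 0.797 and 0.623 with chow, 2.03 and 1.35 on the NASH diet and 0.679 and 0.251 under pemafibrate (limma adjusted *P* = 0.247 for N against C and 0.209 for NP against N). *Cd4*, the coreceptor that reads class II molecules, was at most 0.665 FPKM and was not tested.

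Macrophage markers differed in the same direction as the class II genes, with a smaller median log2 difference. Of 14 macrophage markers, 4 were called higher on the NASH diet than with chow (*Adgre1*, *C1qb*, *Fcgr1* and *Mrc1*), as were 1.48% of all genes tested. With added pemafibrate 8 were called lower, as were 1.39% of all genes tested. The median log2 differences of the 14 markers were 0.75 and -1.21. The macrophage markers summed to 419 and 376 FPKM with chow, 779 and 647 on the NASH diet and 320 and 280 under pemafibrate. The summed FPKM of the 7 class II genes was 0.710 and 0.728 times that sum with chow, 2.42 and 2.31 times on the NASH diet and 0.705 and 0.828 times under pemafibrate. Relative to macrophage markers the class II genes were therefore also higher in both N libraries than in the other 4, and the C and NP libraries overlapped. The part of macrophage number in the class II values was not tested.

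B cell markers and most dendritic cell markers were scarce. The 8 B cell markers summed to 1.51 and 1.29 FPKM with chow, 6.11 and 6.19 on the NASH diet and 1.72 and 2.02 under pemafibrate, and 2 of the 8 could be tested. *Cd79a* and *Cd79b*, the signalling chains of the B cell receptor, differed by 1.196 and 0.84 for N against C (limma adjusted *P* = 0.0581 and 0.0845). Of 9 dendritic cell markers 5 could be tested, with 0 called in limma and 3 (*Batf3*, *Irf4* and *Itgax*) higher for N against C at an unadjusted *P* value under 0.05. The other tested markers, *Zbtb46* and *Clec9a*, had log2 differences of -0.07 and 0.07 for N against C (limma adjusted *P* = 0.905 and 0.918). *Zbtb46* had an FPKM of 6.12 and 6.54 with chow, 6.80 and 5.21 on the NASH diet and 6.26 and 4.27 under pemafibrate. *Itgax* had an FPKM of 0.208 and 0.156 with chow, 1.63 and 0.959 on the NASH diet and 0.316 and 0.0307 under pemafibrate, and *Flt3* was at most 0.332 FPKM. The sum of the 7 class II genes was 197 and 212 times that of the B cell markers with chow, 308 and 241 times on the NASH diet and 132 and 115 times under pemafibrate. Relative to the dendritic cell markers it was 32.4 and 28.1 times with chow, 126 and 125 times on the NASH diet and 23.4 and 31.8 times under pemafibrate. *Zbtb46*, with 0.949 times the C mean in the N group, had the highest FPKM of the dendritic cell list in every library. The ratio to that list therefore says less about its other markers. The N libraries were highest in both ratios, by less against B cell markers. The 9 T cell markers summed to 1.40 and 1.28 FPKM with chow, 5.84 and 5.15 on the NASH diet and 1.64 and 1.42 under pemafibrate. The 6 natural killer cell markers summed to 0.576 and 0.845 FPKM with chow, 3.85 and 6.82 on the NASH diet and 0.272 and 0.670 under pemafibrate. Both sums were thus highest in the N libraries, like the class II genes. Of these markers 1 of each list could be tested and 0 were called in limma, the latter (*Gzma*) being higher for N against C at an unadjusted *P* value under 0.05. *Cd79a*, *Cd79b*, *Batf3*, *Irf4*, *Itgax* and *Gzma* reached the mean FPKM of 0.5 needed for the test only through the N libraries. A higher N group was thus favoured in advance for these markers, and their counts are a description. The part of these cells in the class II values was not tested.

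The 8 endothelial markers, which mark a cell type that can be induced to make class II molecules, were not called in any comparison. They summed to 386.5 and 364.6 FPKM with chow, 420.2 and 334.1 on the NASH diet and 446.9 and 350.2 under pemafibrate, with 0 called in limma, 1 (*Emcn*) higher in N than C at an unadjusted *P* value under 0.05 and a median log2 difference of 0.01 for N against C. Replicate 1 was above replicate 2 in all 3 groups, and the groups overlapped. The sum of the class II genes relative to these markers was 0.770 and 0.751 with chow, 4.48 and 4.47 on the NASH diet and 0.505 and 0.661 under pemafibrate. The 5 atrial markers overlapped between the NP and N libraries in their sum, and their sum was higher in both N libraries than in the C libraries. The part of endothelial cells and atrial tissue in the class II values was not tested. No marker of these lists was at 0 in all 6 libraries.

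**Figure D4:**
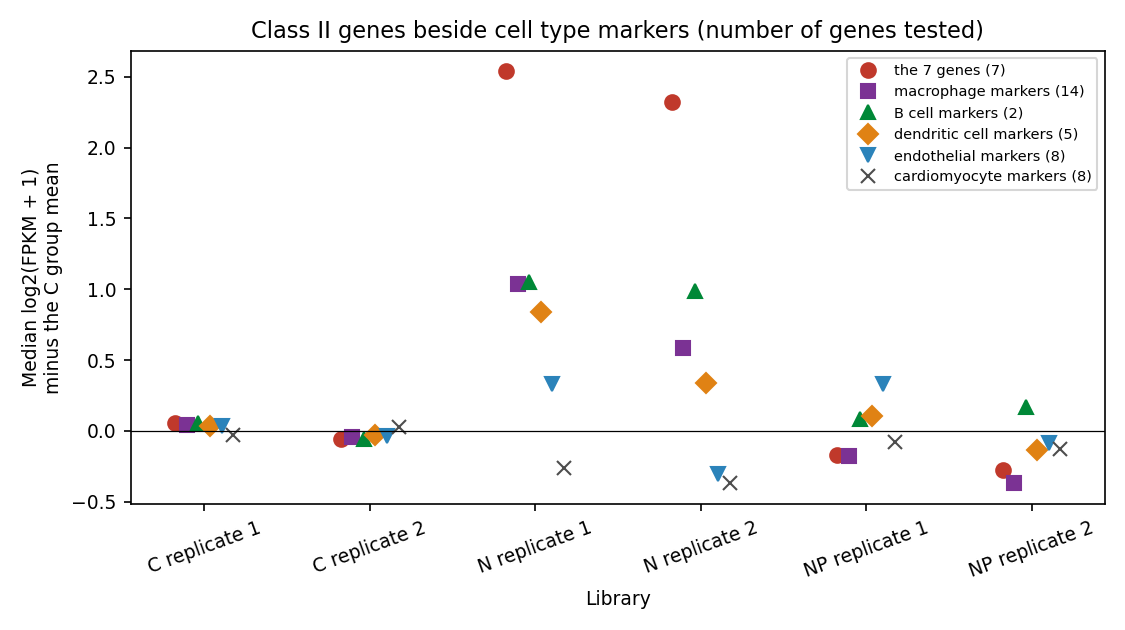
Median log2(FPKM + 1) minus the mean of the C group, for the 7 class II genes and for the tested markers of 5 cell types in each library, with the number of genes in brackets. The class II genes lie at 2.54 and 2.32 in the N libraries, above macrophage markers at 1.04 and 0.58, and at -0.17 and -0.27 in the NP libraries.

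The genes whose pattern was most like that of the class II set were found by the root mean square distance between centred log2(FPKM + 1) values and the median of the 7 genes over the 6 libraries. The 10 nearest genes outside the set were *H2-Q9*, *H2-D1*, *Tgtp1*, *Nlrc5*, *Gbp5*, *Cd52*, *Gbp4*, *Gbp7*, *Irf7* and *H2-T23*, at distances between 0.094 and 0.247. The members themselves lay between 0.100 for *Cd74* and 0.290 for *Ciita*, so that *H2-Q9* and *H2-D1*, both MHC class I genes, were as near to the median as the members were. *H2-D1* had an FPKM of 135 and 115 with chow, 650 and 543 on the NASH diet and 105 and 116 under pemafibrate. *Nlrc5*, the transactivator of class I genes and a relative of *Ciita*, had an FPKM of 1.32 and 0.843 with chow, 7.97 and 8.11 on the NASH diet and 0.573 and 0.661 under pemafibrate. *H2-Q9*, *H2-T23* and the guanylate-binding proteins have close relatives in sequence, and their values are uncertain because reads may be assigned to either. Stretches shared with other genes were searched only for the members and some paralogues. They were not searched for any of these 10 genes, *H2-D1* and *Tgtp1* included.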

How the data were processed

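Heart RNA of the C, N and NP groups was analysed as 6 libraries, grouped by their sample titles. The authors sequenced stranded mRNA libraries in 75-base single-end mode, mapped the reads to mm10 with TopHat2 2.0.13, Bowtie2 2.2.3 and SAMtools 0.1.19, and computed FPKM with Cufflinks 2.2.1. The deposited values are these FPKM, and the annotation behind them is not given in the sources used here. The extraction protocol in the labels speaks of liver, whereas the tissue label is heart.

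Fits were made in limma 3.58.1 under R 4.3.3, and all else in Python 3.11.15. FPKM were taken as log2(FPKM + 1), those genes were kept whose mean FPKM reached 0.5, and 12923 genes were fitted with limma in a model of 3 groups with 3 residual degrees of freedom and a variance trend, with Benjamini-Hochberg adjustment over all of them and a threshold of 0.05. The methods of the study name no test for the FPKM in particular. The members, the lists and the motif letters were chosen with earlier results of these data known. Named genes are the 7 members, the genes of the pathway and marker lists, and the 10 genes most alike in pattern. A few genes of these lists are counted but not reported here by name. Depth was estimated from 4107 genes with 1 transcript in GENCODE M21, with 200 bases taken off each length, and between 74.9% and 79.5% of low values then came to whole reads with a tolerance of 0.1. The limma fit was tested on simulated data for N against C, in which 200 of 12923 genes were changed. It recovered 76% of those changed by 2 and 47% of those changed by 1 on the log2 scale. Promoters are those of RefSeq on GRCm38.p6. Alternatives were other pseudocounts, filters, scalings and designs, and fits leaving out a single library. Nothing says that libraries came from separate animals, so *P* values measure only the spread between these libraries.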

Additional observations from a re-analysis of the deposited data

How the results depend on the processing

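The median log2 difference of the 7 class II genes kept its direction under all alternatives run. For N against C it was 2.62 with FPKM scaled to the same total, against 2.44, and leaving out 1 library gave between 2.32 and 2.54. For NP against N leaving out 1 library gave between -2.96 and -2.51, and for NP against C between -0.30 and -0.17. For single members, adding 0.1 FPKM in place of 1 moved *Ciita* to 2.77 for N against C and to -3.44 for NP against N.

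Of the other class II pathway genes, between 2 and 5 were called for N against C and between 3 and 5 for NP against N when 1 library was left out, the fewest in the former without C replicate 2. In a model of the N and NP libraries alone 3 were called. *Cd274* kept both calls under all 15 alternatives.

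Over all genes, leaving out 1 library gave between 49 and 183 calls for N against C, against 200, the fewest without C replicate 2. Without C replicate 1 the 183 calls were 88 higher and 95 lower, against 191 and 9. It gave between 67 and 108 for NP against N, against 179, and between 5 and 101 for NP against C, against 5, the most without C replicate 1, where 10 were higher and 91 lower against 5 and 0. Scaling to the same total gave 309 calls for N against C and 10 for NP against C. The model of the N and NP libraries alone gave 78 calls. For NP against C a pseudocount of 0.1 gave 12 calls and no filter on low values gave 0.

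Whether the replicate numbers form a pairing was examined across genes. The difference between replicates 2 and 1 had a Pearson correlation of 0.047 between the C and N groups, 0.124 between the C and NP groups and 0.458 between the N and NP groups, and no source says that a number marks a shared litter or day, although the names of the deposited N and NP tables differ in form between replicates 1 and 2. With the replicate block 328 genes were called for N against C, 200 for NP against N and 20 for NP against C. The median differences of the 7 genes do not change with the block, and the counts of the other pathway genes called were 5, 6 and 0 as without it. Depth limits *Ciita*, which rests on 20 and 13 reads in the NP libraries, and the scarcer paralogues and immune cell markers, and the causes of these changes were not tested.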
